A study of Gallus gallus with 34 samples.

Results

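Messenger RNA counts of the lymphocyte and leukocyte signalling genes PTPRC, LCK, ZAP70, BLNK and BTK were examined in the retina, retinal pigment epithelium (RPE) and choroid of chicks during optically induced changes in eye growth. Genes were taken by symbol from the deposited count table. Of 6 symbols sought, 5 were found among the 13067 genes of the table, and JAK3 was not analysed here. The rule itself used no measured value, but the genes were proposed with earlier results of these data known. All 5 lie in a primary immunodeficiency list that the study examined in these same chicks, so the direction of the members is not independent of that earlier use.

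PTPRC encodes CD45, a receptor tyrosine phosphatase on the surface of white blood cells. In T cells, as described in mammals, CD45 removes an inhibitory phosphate from the kinase LCK. LCK then phosphorylates the T cell receptor complex, to which the kinase ZAP70 binds. In B cells the adaptor BLNK brings the kinase BTK to its substrates downstream of the B cell receptor, and BTK is also used by myeloid cells. JAK3 relays signals from cytokine receptors that share the common gamma chain. The choroid, a vascular layer behind the RPE, carries blood leukocytes and holds resident macrophages and lymphocytes, and the retina holds microglia.

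All 34 birds were male Leghorn/New Hampshire chicks with 1 right eye taken from each. From post-hatch day 5 the eye carried a -10 D lens (negative lens, which speeds eye growth), a +10 D lens (positive lens, which slows it) or no lens. Tissue was collected after 1, 2 or 3 days, at post-hatch day 6, 7 or 8, and retina, RPE and choroid were processed as one sample. The study picked these birds for sequencing because their eyes had responded strongly and alike, so the spread within a group may be narrower than among unselected birds. The No Lens groups at 1 and 2 days held 3 chicks each and the other 7 groups held 4.

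Total counts per chick ranged from 1592763 to 13765634 (median 5014243.5), and the lowest was that of chick 32, in the positive lens group at 3 days. No library repeated another of its group, since the counts of all 48 same-group pairs lay apart beyond counting noise (chi-square 2.85 to 22.3 per gene). Pairs from different groups were not compared. The RPE was well represented, with a mean over all chicks of 739 CPM (the reads of a gene relative to all reads of the chick, scaled to a common total) for RPE65, an enzyme of the pigment epithelium. The summed level of the 7 retinal neuron markers found was 4907 to 6435 CPM per chick at 3 days. Transcripts of the members were scarce, with group means of 11.2 to 17.6 CPM for their sum. Pan-leukocyte genes summed to group means of 113 to 143 CPM. In a bulk sample such as this one, fewer cells of a type cannot be told apart from less RNA per cell.

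Read numbers set how much each gene could show. PTPRC had 19 to 117 reads per chick and BTK (ENSGALG00000004958) had 2 to 46. BLNK (ENSGALG00000006973) had 2 to 17 reads, ZAP70 (ENSGALG00000001486) 0 to 12 and LCK (ENSGALG00000000466) 0 to 10. The filter on low counts kept PTPRC and BTK in all 20 comparisons, BLNK only in the 2 comparisons fitted over all 34 chicks, and LCK and ZAP70 in none. Levels are therefore given for all 5 genes, and fitted fold changes mainly for PTPRC and BTK.

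No member that passed the filter was differentially-expressed in any of the 20 comparisons. By the quasi-likelihood test of edgeR, Benjamini-Hochberg adjusted over all genes, the lowest adjusted p-value among 42 tests of members was 0.381. Of these 42 tests, 5 had an unadjusted p-value below 0.05, 4 of them for PTPRC and 1 for BTK. DESeq2 also called 0 members, with 3 of 100 tests below 0.05 before adjustment. It gave an adjusted p-value for 85 of these 100 tests, and the rest could not be called. Over all genes, the share with an unadjusted p-value below 0.05 in edgeR was 4.98% in the comparison of the BTK test, and 6.58%, 12.5%, 5.57% and 4.62% in those of the PTPRC tests. The share of all genes called by edgeR was 0.878% (101 of 11501) for the positive lens against no lens at 3 days. Between the lenses it was 0.0262%, 0.0526% and 0.0348% at 1, 2 and 3 days, and 0.00873% for no lens between days 2 and 3 and between days 1 and 3. It was 0.0264% for the negative lens between days 1 and 2, and 0% (0 genes) by edgeR in every remaining comparison, among them both comparisons of the change from day 1 to 3 between groups. DESeq2 called more genes, with 533 for the positive lens against no lens at 3 days, 76 for no lens between days 1 and 3, 60 between the lenses at 3 days, 51 for no lens between days 2 and 3, and 0 to 23 in each of the others.

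**Figure D1:**
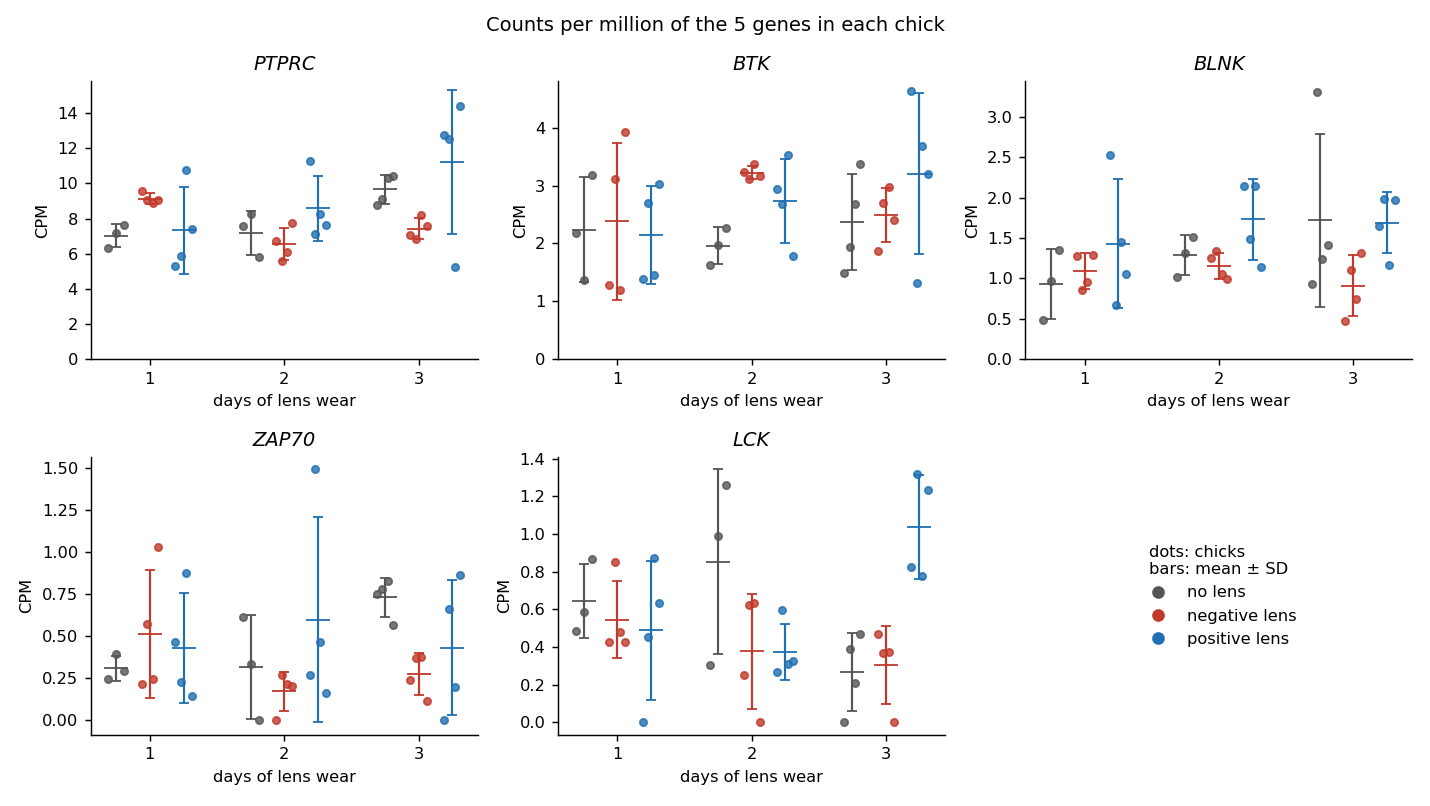
Expression (CPM, vertical axes) of PTPRC, BTK, BLNK, ZAP70 and LCK against days of lens wear, with a dot for each chick and bars for the mean ± SD of each group of 3 or 4. PTPRC lay between 12.5 and 14.4 CPM in 3 of the 4 positive lens chicks at 3 days and at 5.23 CPM in the other, while LCK in the same group lay above the other groups of that day.

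PTPRC (ENSGALG00000002192), the pan-leukocyte phosphatase, was lowest after 2 days of negative lens wear and highest in the positive lens group at 3 days. Group means spanned a 1.71-fold range. Without a lens its level was 6.31, 7.19 and 7.61 CPM at 1 day. It was 7.56, 8.24 and 5.801 CPM at 2 days. At 3 days the No Lens chicks had 8.77, 9.12, 10.3 and 10.4 CPM, and none of these values overlapped with those of the earlier days. Of all genes that passed the filter, 5.26% showed such non-overlap between days 2 and 3 and 11.1% between days 1 and 3 without a lens. The exact two-sided permutation p-value was 0.0286 for both, the smallest that 4 against 3 chicks can give. The fitted change without a lens from day 1 to 3 was 0.44 on the log2 scale (95% interval 0.02 to 0.86), with an adjusted p-value of 0.381.

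Under the negative lens PTPRC was highest at 1 day. Its level at 1 day was 9.55, 9.08, 8.87 and 9.07 CPM, from 32 to 106 reads. These values lay above every No Lens chick of that day (non-overlap in 5.27% of all genes). Even pooled, the 220 reads of the group gave a 95% interval for counting error of 7.96 to 10.4 CPM, wider than the spread between its chicks. The closeness of these values is therefore not read as a trait of the group. At 2 days the PTPRC level was 6.74, 5.60, 6.11 and 7.73 CPM. At 3 days it was 7.04, 6.85, 8.20 and 7.56 CPM, below every No Lens chick of that day (non-overlap in 4.59% of all genes). Within the negative lens group the values of day 1 lay above all those of days 2 and 3, where 3.49% and 2.65% of all genes did not overlap between the days. Each of these 4 contrasts gave an exact two-sided permutation p-value of 0.0286, the smallest possible. The fitted change from day 1 to 2 was -0.49 (95% interval -0.83 to -0.14, unadjusted p-value 0.00942), and its adjusted p-value in edgeR's test was 0.665. Against no lens, the log2 fold changes of the negative lens were 0.37 at 1 day, -0.15 at 2 days and -0.38 at 3 days, and none passed edgeR's test.

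Under the positive lens PTPRC varied more between chicks. Its level was 5.29, 5.85, 10.8 and 7.40 CPM at 1 day. At 2 days it was 11.3, 7.15, 8.28 and 7.61 CPM. At 3 days chicks 26, 32 and 36 had 12.7, 12.5 and 14.4 CPM, and chick 33 had 5.23 CPM, the lowest of all 34 chicks. The mean at 3 days was 11.2 ± 4.08 CPM (SD, n = 4), against 9.65 ± 0.83 (n = 4) without a lens and 7.41 ± 0.60 (n = 4) with the negative lens. Chick 32 contributed only 19 PTPRC reads.

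At 3 days PTPRC was lower under the negative than under the positive lens by 0.62 on the log2 scale (95% interval of the log2 fold change -1.16 to -0.08, unadjusted p-value 0.0273). The adjusted p-value in edgeR's test was 0.698, and the exact two-sided permutation p-value over the 8 chicks was 0.143, since chick 33 lay below all the negative lens chicks. Chick 33 decided this call. Without it the log2 fold change was -0.86 and the adjusted p-value in edgeR's test was 0.0374, so that 1 member was called in place of 0. Leaving out the lowest value of a group raises its mean in any case. The call was not particular to PTPRC, since the macrophage gene LY86 also passed edgeR's test in that fit (adjusted p-value 0.0321). The share of all genes called in that fit is not given here. The change from day 1 to 3 was larger under the positive than under the negative lens by 0.95 on the log2 scale (95% interval 0.30 to 1.60, unadjusted p-value 0.0055), with an adjusted p-value of 0.838. Set against the change without a lens, that under the positive lens was larger by 0.22 (95% interval -0.45 to 0.89). The adjusted p-value of that contrast in edgeR's test was 0.857. These contrasts share chicks with each other and do not count as separate evidence.

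**Figure D2:**
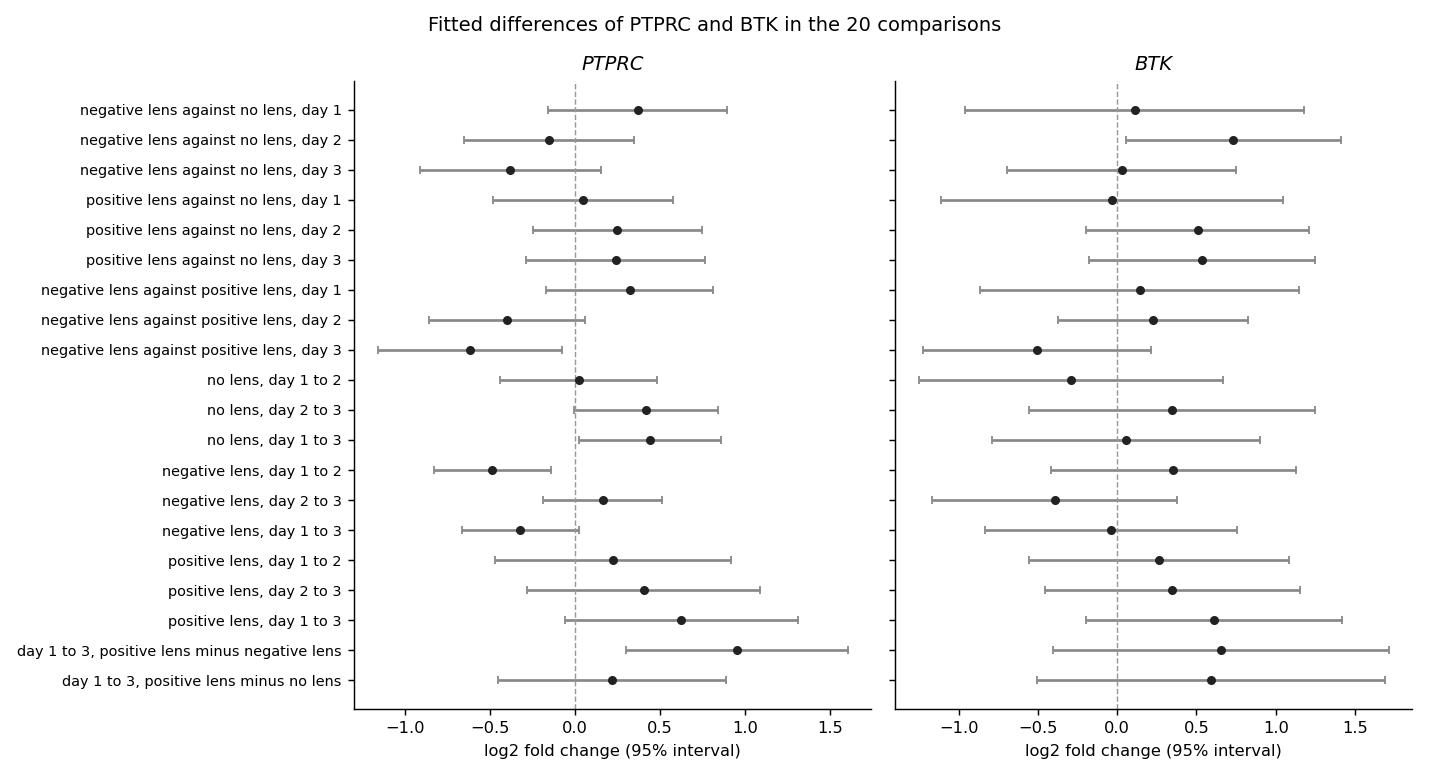
Log2 fold changes (horizontal axes) of PTPRC and BTK in each of the 20 comparisons, as points with 95% intervals from edgeR's quasi-likelihood fit. The SE behind each interval was never set below that of Poisson counts. The PTPRC interval excludes 0 for the negative against the positive lens at 3 days (-0.62), for the negative lens from day 1 to 2 (-0.49), for no lens from day 1 to 3 (0.44) and for the difference in change between the lenses (0.95), and no point passed the threshold after adjustment over all genes.

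The genes whose log2 CPM was most like that of PTPRC over the 34 chicks were all genes of striated muscle. Among 10788 genes compared, Pearson's r was 0.71 for TNNC1 (a troponin), 0.68 for ANKRD1, 0.67 for PPP1R3A, 0.65 for MYBPC3 (a myosin binding protein) and 0.64 for NEXN. Chicken eyes carry striated fibres in the muscles of the ciliary body and outside the globe. The summed level of striated muscle genes, a list of 20 chosen after these values were seen and found for 18 symbols, was therefore set beside PTPRC. It was 921, 104.1, 20.1 and 2293 CPM in positive lens chicks 26, 32, 33 and 36 at 3 days. In the other 30 chicks it ranged from 15.9 to 235 CPM with a median of 25.8. MYBPC3 alone ranged from 1.16 to 162 CPM among the 4 positive lens chicks at 3 days, with a median of 24.8, against medians of 4.45 without a lens and 2.10 under the negative lens. Within that group PTPRC and muscle RNA had the same order, with chicks 36, 26, 32 and 33 from highest to lowest. Chick 32 lay within the muscle range of the other 30 chicks, above their median. PTPRC and muscle genes had the same order also in the negative lens chicks at 3 days. These ran from 22.3 CPM of muscle genes with 6.85 CPM of PTPRC to 37.3 with 8.20. So did the No Lens chicks at 3 days, from 28.6 CPM of muscle genes with 8.77 CPM of PTPRC to 235 with 10.4. No group of 1 or 2 days, with or without a lens, kept this order throughout. Negative lens chick 49 at 2 days had 24.0 CPM of muscle genes with the lowest PTPRC of its group, 5.60 CPM. No Lens chick 74 at 1 day had less muscle RNA than chick 73 (20.2 and 21.3 CPM) but more PTPRC (7.19 and 6.31 CPM). Positive lens chick 2 had 136 CPM of muscle genes with 5.85 CPM of PTPRC, and positive lens chicks 13 and 8 had 21.2 and 31.7 CPM of muscle genes with 11.3 and 10.8 CPM of PTPRC. Pearson's r between PTPRC and the summed muscle level was 0.65 (Spearman's rho 0.67) over 34 chicks and 0.34 (rho 0.53) over the 30 chicks outside that group. These values are a description without a test, and the part of muscle tissue in the PTPRC difference was not tested.

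**Figure D3:**
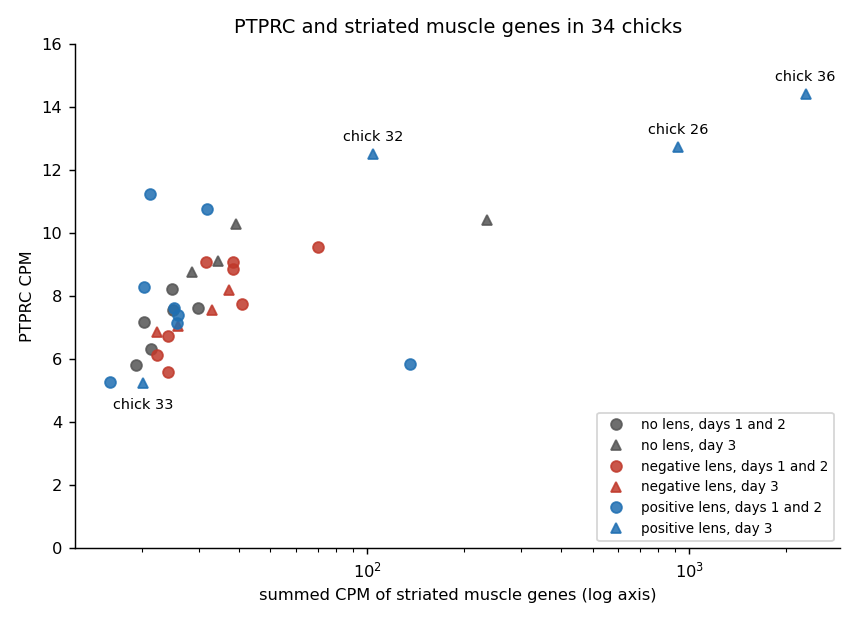
PTPRC (CPM, vertical axis) against the summed CPM of striated muscle genes (horizontal log axis) in 34 chicks, with colour for lens and triangles for 3 days. Positive lens chicks 26 and 36 at 3 days lie far to the right at 921 and 2293 CPM of muscle genes with 12.7 and 14.4 CPM of PTPRC, and chick 33 lies at the lower left with 20.1 and 5.23 CPM.

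Chicks 26 and 36, which had the most muscle RNA and also the highest PTPRC of all 34 chicks, were left out in an alternative added after seeing the data. Leaving out the highest values of a group lowers its mean in any case, so this alternative does not separate muscle RNA from PTPRC itself. The negative against positive lens contrast of PTPRC at 3 days then had a log2 fold change of -0.10 in place of -0.62, and the positive lens against no lens had -0.29 in place of 0.24. The difference in change from day 1 to 3 between the lenses was 0.48 in place of 0.95. Only chicks 32 and 33 then stood for the positive lens at 3 days, with 12.5 and 5.23 CPM.

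LCK, the kinase that starts T cell receptor signalling, was the one member whose positive lens values at 3 days stood clear of the other lens groups of that day. In positive lens chicks 26, 32, 33 and 36 it had 5, 2, 4 and 10 reads, or 0.827, 1.32, 0.774 and 1.23 CPM. The No Lens chicks had 0, 2, 1 and 5 reads and the negative lens chicks 2, 3, 1 and 0. The highest of those 8 chicks stood at 0.470 CPM, and a count of 0 allowed up to 0.560 CPM in the No Lens chick and 0.329 CPM in the negative lens chick. The mean was 1.04 ± 0.28 CPM (SD, n = 4) with the positive lens, 0.266 ± 0.209 (n = 4) without a lens and 0.302 ± 0.207 (n = 4) with the negative lens. Chick 33, low in PTPRC and in muscle genes, was within this LCK range.

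The positive lens mean of LCK at 3 days was 3.90-fold that without a lens. Among genes that passed the filter, 12.5% did not overlap between the positive lens and no lens at 3 days, and 3.9% between the lenses. LCK did not pass the filter, so these shares do not describe genes with so few reads. The exact two-sided permutation p-value of LCK was 0.0286 in each. It was also 0.0286 for the positive lens between days 2 and 3, where 2.9% of the genes that passed the filter did not overlap. Pooled over the group, 21 reads gave 1.01 CPM (95% counting interval 0.623 to 1.54) with the positive lens at 3 days, 8 reads gave 0.308 (0.133 to 0.606) without a lens and 6 reads gave 0.248 (0.0908 to 0.539) with the negative lens. Such intervals cover counting error only. In a fit without the filter on low counts, LCK was higher with the positive lens than without a lens by 1.71 ± 0.74 (SE) on the log2 scale (adjusted p-value 0.192), and lower with the negative than with the positive lens by 1.89 ± 0.79 (adjusted p-value 0.559).

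At 1 and 2 days the LCK groups overlapped. Its mean was 0.645 ± 0.198 CPM (n = 3) at 1 day and 0.852 ± 0.492 (n = 3) at 2 days without a lens. With the negative lens it was 0.546 ± 0.205 and 0.376 ± 0.308 (n = 4 each), and with the positive lens 0.489 ± 0.369 and 0.374 ± 0.150 (n = 4 each). Without a lens the LCK values of day 3 lay below all those of day 1, with an exact two-sided permutation p-value of 0.0857. Over the genes that passed the filter, 11.1% did not overlap in that comparison, counting either direction, and 3.99% lay lower at day 3. The count of 0 in chick 100 allowed up to 0.560 CPM, above the lowest value of day 1, 0.485 CPM. The order of group means therefore put No Lens at 3 days last and the positive lens at 3 days first, with the groups between them not separated beyond their spread.

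ZAP70, the kinase that acts after LCK, did not share this pattern. At 3 days the No Lens chicks had 4, 4, 4 and 6 reads, or 0.747, 0.776, 0.824 and 0.563 CPM, the highest group mean of the 9 (0.728 ± 0.114 CPM). The negative lens chicks had 1, 3, 1 and 1 reads, with 0.373 CPM at most and a mean of 0.271 ± 0.125 CPM (n = 4). These groups did not overlap, and neither did No Lens at 1 and 3 days, with an exact two-sided permutation p-value of 0.0286 for each. Over the genes that passed the filter, which ZAP70 did not, 4.59% and 11.1% did not overlap in these contrasts. Between days 2 and 3 without a lens ZAP70 overlapped, with an exact two-sided permutation p-value of 0.0571. The positive lens chicks at 3 days spread over both, with 0, 1, 1 and 7 reads and 0 to 0.862 CPM, where the count of 0 allowed up to 0.496 CPM. Without the filter the negative lens was lower than no lens by 1.41 ± 0.78 (SE) on the log2 scale, with an adjusted p-value of 0.539 in edgeR's test. The highest single value, 1.49 CPM from 5 reads, was that of a positive lens chick at 2 days. At 1 day the mean of ZAP70 was 0.307 ± 0.0747 CPM in the 3 No Lens chicks, 0.511 ± 0.379 under the negative lens and 0.424 ± 0.327 under the positive lens (n = 4 each). At 2 days these means were 0.314 ± 0.307, 0.169 ± 0.117 and 0.595 ± 0.609 CPM, and the groups of both days overlapped.

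BLNK, the adaptor of B cell receptor signalling, had its lowest mean in the negative lens group at 3 days (0.908 ± 0.375 CPM) and its highest in the positive lens group at 2 days (1.73 ± 0.503 CPM, n = 4 each), a 1.90-fold range. At 3 days the values were 1.65, 1.98, 1.16 and 1.97 CPM with the positive lens and 0.469, 1.10, 0.745 and 1.31 CPM with the negative lens. These overlapped in 1 positive lens chick, chick 33, and the exact two-sided permutation p-value was 0.0571. The No Lens chicks of that day had 0.934, 3.30, 1.24 and 1.41 CPM, and the value of 3.30 CPM, from 17 reads, was the highest of the series. At 1 day the mean of BLNK was 0.935 ± 0.433 CPM in the 3 No Lens chicks, 1.09 ± 0.220 under the negative lens and 1.43 ± 0.799 under the positive lens (n = 4 each). At 2 days it was 1.28 ± 0.248 (n = 3) without a lens and 1.16 ± 0.161 (n = 4) with the negative lens. No contrast of BLNK between lens groups of a day or between days was free of overlap. In the fit over all chicks the change of BLNK from day 1 to 3 was larger under the positive than under the negative lens by 0.50 (95% interval -0.70 to 1.70, adjusted p-value 0.9999), an interval that leaves both directions possible.

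BTK, the kinase downstream of BLNK and of several myeloid receptors, had 1 fitted contrast with an unadjusted p-value below 0.05 in edgeR, at 2 days. The negative lens chicks then had 3.24, 3.11, 3.37 and 3.17 CPM, against 1.63, 1.98 and 2.27 CPM without a lens, with no overlap (6.74% of all genes in that comparison). The log2 fold change was 0.73 (95% interval 0.05 to 1.41, unadjusted p-value 0.0365), and the adjusted p-value in edgeR's test was 0.974. DESeq2 gave an unadjusted p-value of 0.0911. The exact two-sided permutation p-value was 0.0286. The same 4 chicks lay above all negative lens chicks of day 3, which had 1.88, 2.69, 2.98 and 2.41 CPM, in a comparison where 2.84% of all genes did not overlap (exact two-sided permutation p-value 0.0286). The positive lens chicks at 2 days had 2.95, 2.68, 3.53 and 1.78 CPM and overlapped with both other groups.

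BTK at 3 days overlapped among all lens groups. Without a lens it was 1.49, 1.94, 2.68 and 3.38 CPM, and with the positive lens 4.63, 1.32, 3.68 and 3.20 CPM in chicks 26, 32, 33 and 36. The lowest of these rested on 2 reads in the chick of lowest depth. The negative against positive lens contrast was -0.51 (95% interval -1.23 to 0.22) and the positive lens against no lens 0.53 (95% interval -0.18 to 1.25), with adjusted p-values of 0.850 and 0.442 in edgeR's test. BTK thus moved to the same side as PTPRC in these 2 contrasts without excluding 0. At 1 day its mean was 2.24 ± 0.910 CPM in the 3 No Lens chicks, 2.38 ± 1.36 under the negative lens and 2.14 ± 0.848 under the positive lens (n = 4 each). Its log2 fold changes of that day lay between -0.03 and 0.14 in the 3 lens contrasts, with intervals that reached about 1 in either direction.

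Over chicks no relation between members was established after adjustment. Of 20 relations computed between the 10 pairs (log2 CPM over 34 chicks, with and without group means removed), the highest Pearson's r was 0.36 for PTPRC and ZAP70 (permutation p-value 0.0364, adjusted 0.462; Spearman's rho 0.43, permutation p-value 0.0111, adjusted 0.221). Without the 2 chicks farthest from the median of PTPRC it was 0.47, and with group means removed it was 0.20. PTPRC and BLNK gave r = 0.34 (permutation p-value 0.0462, adjusted 0.462; rho 0.33, permutation p-value 0.0558, adjusted 0.558), and r = 0.27 without the 2 farthest chicks. LCK and ZAP70, which act in succession, gave r = 0.02 (permutation p-value 0.916; rho 0.04, permutation p-value 0.834), and BLNK and BTK gave r = 0.03 (permutation p-value 0.885; rho 0.13, permutation p-value 0.477). With a median of 2 reads per chick for LCK and 1.5 for ZAP70, counting noise limits any such relation.

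The genes most like the other members were of mixed kinds. Those closest to LCK were KXD1 (r = 0.59), FAM195A, SELP, MT-ND3 and PIEZO1 (r = 0.58 each), of which SELP encodes an adhesion receptor of platelets and endothelium. Those closest to BLNK were EP4 (r = 0.63) and NFATC2 (r = 0.62), a transcription factor of activated lymphocytes, followed by AK6, TAX1BP3 and HTR7. Among those closest to ZAP70 were SPIRE1 (r = 0.64), TET2, CNOT4 and TOX3. C1QBP (r = 0.68) led for BTK, before NDUFB8, RPS20, UPP1 and RAB9B. At least 10788 genes were compared for each member over 34 chicks, and these values carry no test.

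Other genes of these pathways, and markers of the cell types in the tissue, were taken from 12 lists of 109 genes in the table. Across the 20 comparisons 1 of them passed the test in 1 comparison. It was COL1A2, a fibrillar collagen in the list of choroid vessel and stroma markers, which was higher with the positive lens than without a lens at 3 days by 0.89 on the log2 scale (adjusted p-value 0.0452, edgeR). Without chicks 26 and 36 its log2 fold change was 0.41 with an adjusted p-value of 0.2496, and leaving out any 1 chick of the 2 groups gave adjusted p-values of 0.0424 to 0.118, below 0.05 in 1 of 8 fits. In the fit of all 34 chicks the adjusted p-value was 0.183. It was below 0.05 by DESeq2 (0.0017), with RLE normalization (0.0452), without the filter (0.0496) and with only the groups compared (0.0304).

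Surface receptors of T cells were present at low levels. Of 11 listed, 8 were in the table and 3 were tested at 3 days. CD247, the zeta chain that ZAP70 binds, had a mean of 4.72 CPM over all chicks, CD3E 2.14 CPM and CD2 1.67 CPM. The negative against positive lens log2 fold changes at 3 days were -0.27 for CD247, -0.66 for CD3E and -0.40 for CD2, and none passed the test (unadjusted p-values 0.446, 0.0655 and 0.292). The summed level of the list was 17.1 ± 4.23 CPM (n = 4) with the positive lens at 3 days, with 13.9 to 23.2 CPM per chick, against 12.1 ± 0.88 without a lens and 11.7 ± 1.25 with the negative lens (n = 4 each). The highest value was that of chick 36. Chick 33, with the lowest PTPRC, had 13.9 CPM, above all 8 chicks of the other groups that day. Among single genes that passed the filter, 12.5% did not overlap between the positive lens and no lens at 3 days, and 3.9% between the lenses. Such a sum was also reached on other days, with up to 14.4 CPM in No Lens chicks at 1 day. It was up to 15.2 CPM in negative lens chicks and up to 15.8 CPM in positive lens chicks at 2 days.

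Kinases and adaptors downstream of antigen receptors were dominated by genes that neurons and vessels also express. FYN, the Src family kinase closest in role to LCK, had a mean of 75.3 CPM, MALT1 82.4 CPM and PRKCB 59.6 CPM. Their log2 fold changes between the negative and the positive lens at 3 days were 0.14, 0.03 and 0.06. Over the 21 tested genes of this list the median was -0.10, against -0.01 over all genes, with 7 of 21 above 0 and 0 called. For the cytokine receptors that use JAK3 and their partners, 13 of 19 symbols were in the table. JAK1, the partner kinase of JAK3, had 264 CPM, STAT3 153 CPM and JAK2 71.3 CPM, and their log2 fold changes in that contrast were 0.003, 0.02 and -0.03. B cell genes were represented by 4 of 12 symbols. EBF1, with 10.4 CPM, is also expressed outside B cells, CIITA had 1.18 CPM and BANK1 0.877 CPM. The defining B cell markers PAX5 and CD79B were not analysed here.

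**Figure D4:**
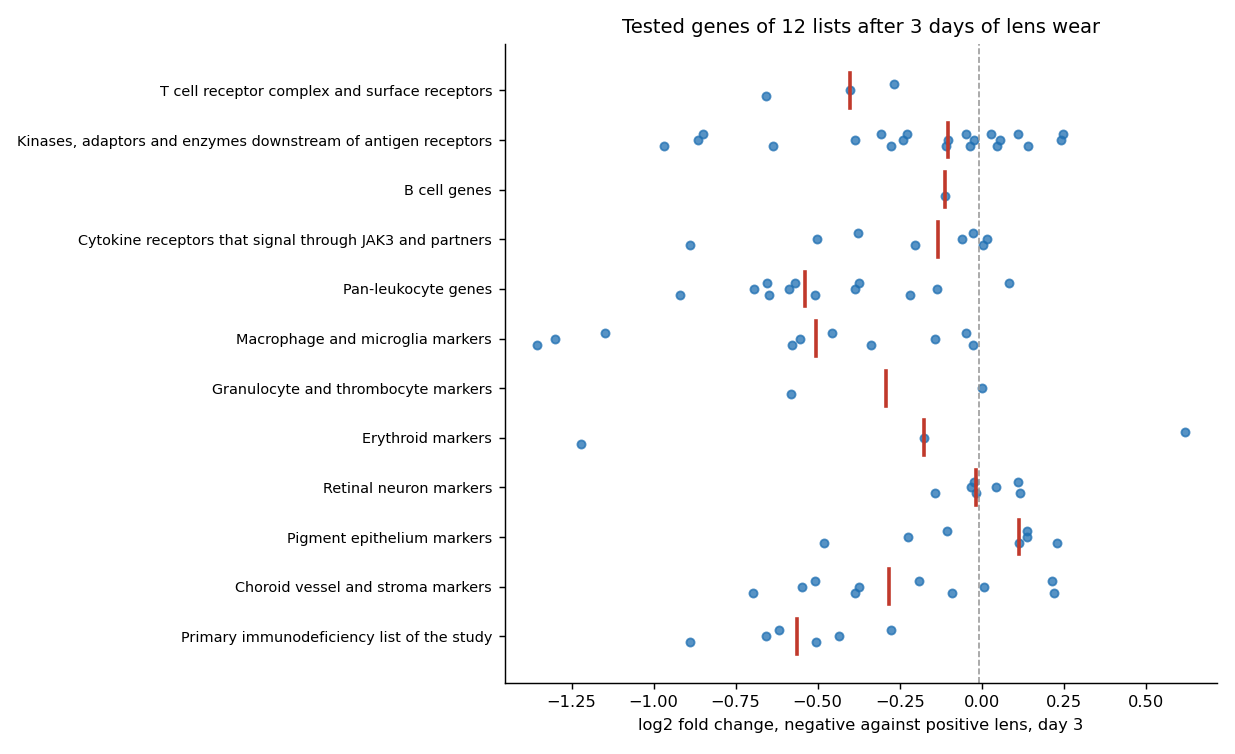
Log2 fold changes of the tested genes of 12 lists (rows) for the negative against the positive lens at 3 days, with a dot for each gene, a red bar for the list's median and a dashed line for the median of all genes (-0.01). Pan-leukocyte genes (median -0.54) and macrophage and microglia markers (median -0.51) lie mostly left of the line, and no gene shown passed the test.

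General leukocyte and macrophage genes lay on the same side as PTPRC at 3 days, and so did markers of some other cell types. The median log2 fold change, negative against positive lens, was -0.54 over 12 tested pan-leukocyte genes, of which 1 was above 0, and -0.51 over 10 macrophage and microglia markers, of which 0 were above 0. The median of all genes was -0.01, with 47.8% above 0, and 0 genes of these lists were called by edgeR (3 of each at an unadjusted p-value below 0.05). The largest log2 fold changes were those of the macrophage genes LY86 (-1.35, adjusted p-value 0.142), C1QB (-1.30, 0.177) and C1QA (-1.15, 0.509), which were named after their values were seen. LY86 was called in 3 alternatives, by DESeq2 (adjusted p-value 0.00225), in the fit of all 34 chicks (0.0487) and without chick 33 (0.0321). CSF1R, the receptor that macrophages and microglia need to survive, stood at 64.0 CPM over all chicks with a log2 fold change of -0.05, and IRF8 at 16.5 CPM with -0.14. LCP1 (28.4 CPM) had -0.39, ITGB2 (8.92 CPM) -0.22 and ARHGDIB (47.0 CPM) 0.08.

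Of the lists of other cell types, some shared the shift and some did not. Choroid vessel and stroma markers had a median of -0.28 for the negative against the positive lens at 3 days and 0.40 for the positive lens against no lens, where the pan-leukocyte and macrophage lists had 0.17 and 0.19. Their summed level was 1791 ± 346 CPM with the positive lens, 1587 ± 221 without a lens and 1620 ± 220.1 with the negative lens (n = 4 each). Granulocyte and thrombocyte markers, in part leukocyte genes themselves, summed to 24.6 ± 2.42, 20.4 ± 3.60 and 20.7 ± 3.79 CPM in the same order. That sum held only ITGB3, GATA2 and CSF3R, with means over all chicks of 11.2, 7.35 and 1.34 CPM. It therefore rested mainly on ITGB3 and GATA2. Retinal neuron markers summed to 5609 ± 485, 5392 ± 284 and 5718 ± 755 CPM in that order. Pigment epithelium markers summed to 1733 ± 237, 1610 ± 124 and 1836 ± 136 CPM. Both of these means were highest with the negative lens. The part of these lists in the PTPRC values was not tested.

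Leukocyte lists at 3 days were also sensitive to chicks 26 and 36. Without them the median for the negative against the positive lens was -0.26 over pan-leukocyte genes (3 of 12 above 0) and -0.23 over macrophage and microglia markers (3 of 10 above 0). For the positive lens against no lens at 3 days the medians fell from 0.17 to -0.12 and from 0.19 to -0.04. At 1 day the negative against positive lens medians were 0.10 and -0.08, and at 2 days they were -0.23 and -0.40. The summed macrophage and microglia level at 3 days was 144 ± 19.1 CPM (n = 4) with the positive lens, 131 ± 15.5 without a lens and 118 ± 4.47 with the negative lens (n = 4 each).

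A primary immunodeficiency list of 15 genes, which holds all 5 members, was used by the study on these same chicks and is not independent evidence of direction. All 6 genes of it tested at 3 days had a log2 fold change below 0 for the negative against the positive lens, with a median of -0.56 and 0 called. PTPRC and BTK are among these 6 genes. The direction of this pathway at 3 days was known from the study beforehand, so the count of 6 is no support for it. Its summed level was 40.0, 40.8, 28.1 and 49.4 CPM in positive lens chicks 26, 32, 33 and 36, against 23.7 to 25.5 CPM in the negative lens chicks and 27.8 to 33.4 CPM without a lens. Without chicks 26 and 36 the median was -0.31, again with 0 of 6 above 0, and the choroid median was 0.02. Red cell markers were also highest with the positive lens at 3 days, but the No Lens and negative lens groups came in the reverse order. Their summed level was 10.5 ± 3.59 CPM with the positive lens, 5.43 ± 2.83 without a lens and 8.16 ± 2.44 with the negative lens (n = 4 each).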

How the data were processed

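Messenger RNA of retina, RPE and choroid was sequenced from 34 chicks in 9 groups with a stranded kit as single-end reads. Adapters and bases of quality score below 10 were removed by the authors (CutAdapt, Trimmomatic), who mapped reads to GalGal4 (Tophat2, Bowtie2). The deposited values are raw HTSeq counts per gene and chick. Versions and the strand setting of the counting are not given in the sources used here. One count column carries a suffix on its chick number, whose meaning is not stated.

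Groups were taken from the sample labels. Analysis used R 4.3.3. Genes were filtered with filterByExpr (minimum count 10, minimum total 15), normalized by TMM and compared in edgeR 4.0.16 by the quasi-likelihood test, with Benjamini-Hochberg adjustment over all genes tested and a threshold of 0.05. Fits held all chicks of a day, the 3 days of a lens group, or all 34 chicks. Shares of all genes are over the genes that passed the filter in the fit concerned. The SE of a log2 fold change came from the quasi-likelihood dispersion. The 90 pairs of single-gene group values (18 comparisons of 5 genes) were tested by exact permutation, two-sided, on log2 CPM with a prior count of 2. Of these, 13 gave a p-value below 0.05, each at the smallest possible value of 0.0286. Relations over chicks used 100000 permutations. The code was tested on simulated data, in which only genes with more reads than LCK, ZAP70, BLNK and BTK were changed. That check does not show what size of change could be found in those members.

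Every member is given in every group, and its contrasts are described where its groups did not overlap or its fit stood out, with the rest by counts. Genes of the lists were named where they passed the test or were among the 3 of highest mean CPM in a list, except C1QA and C1QB, named for their fold changes after these were seen, and the 5 genes most like each member were named by Pearson's r, apart from genes not reported here. Members and lists were chosen with earlier results of these data known. Sequences and coordinates of the genes were not used here. Chicks of a group had unique numbers, and p-values measure the spread between these single birds. Alternatives were DESeq2 1.42.0, RLE normalization, no filter, only the groups compared, all 34 chicks in 1 fit, and each chick left out in turn. Relations were also computed with a prior count of 0.5 and without the chick of lowest total.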

Additional observations from a re-analysis of the deposited data

Results flagged for a closer look

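LCK in the negative lens group at 1 day was highest in chick 44, at 0.851 CPM against 0.424 to 0.480 CPM in the other 3 chicks. The gap of chick 44 to the nearest chick was 0.870 of the group's range. The value rested on 3 reads, where the other chicks had 2, 2 and 5. The same comparison was made for 5 genes in 7 groups of 4 chicks, which gives 35 sets. Chance flags about 1 in 20 such sets, a rate not checked for counts this low.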

How the results depend on the processing

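The count of members called was 0 under each alternative in each of the 20 comparisons, with 1 exception. It was 1 without chick 33 (PTPRC, negative against positive lens at 3 days, range 0 to 1 over chicks left out), where the log2 fold change ranged from -0.86 to -0.43. Without chicks 26 and 36, an alternative chosen after seeing the data, PTPRC changed sign for the positive lens against no lens at 3 days (-0.29), for the positive lens from day 2 to 3 (-0.0412) and for the change from day 1 to 3 under the positive lens less that without a lens (-0.25). Leaving out single chicks, PTPRC ranged from -0.18 to 0.16 for the positive lens against no lens at 1 day, from -0.065 to 0.13 for no lens from day 1 to 2, and from -0.00037 to 0.43 for the change under the positive lens less that without a lens. BTK ranged from -0.35 to 0.52 (negative lens against no lens, 1 day), -0.13 to 0.29 (the same at 3 days), -0.31 to 0.38 (positive lens against no lens, 1 day), -0.32 to 0.43 (negative against positive lens, 1 day), -0.53 to 0.13 (no lens, day 1 to 2), -0.23 to 0.47 (no lens, day 1 to 3) and -0.24 to 0.44 (negative lens, day 1 to 3). BLNK ranged from -0.88 to 0.012 for the change under the positive lens less that without a lens. Correlations near 0 changed sign: PTPRC and BTK without the chick of lowest total (0.092, and 0.049 with group means removed), LCK and ZAP70 with a prior count of 0.5 (-0.0087) or without that chick (-0.029), and LCK and BLNK without that chick (-0.014). Among values of single genes and relations, 638 kept their direction and side of the threshold under an alternative, 33 changed sign, 9 were no longer past the threshold, 4 came to be past it and 2 moved beyond their spread. The causes were not tested. No paired analysis was possible because chicks carry unique numbers. Depth limits LCK and ZAP70, at 0 to 12 reads per chick.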
